A study of Mus musculus with 6 samples.

Results

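The genes described are 10 integrin subunits of leukocytes and of matrix adhesion, chosen by symbol: Itgam, Itgax, Itgal, Itgb2, Itga4, Itgb7, Itga5, Itga6, Itgb1 and Itgb3. Of these, 9 had a row in the authors' unfiltered table of 13960 rows, and all 9 were among the 13042 genes tested. Itgb2 had no row there and is given from the authors' filtered table. The later group was 3 libraries made 7 days after a contusion of the mouse spinal cord at T8, and it was set against 3 libraries made 3 days after the same injury. All 6 libraries came from the injury site of chimeras labelled LysMCre:Rplfl/fl > CD45.1, strain CD45.1, and neither the age of the animals nor the number pooled is in the labels. The label is read here as donor marrow with LysM-Cre and a floxed Rpl22 tag allele placed in CD45.1 hosts. LysM-Cre is active in macrophages and in other myeloid cells such as neutrophils, and the host keeps cells that carry no tag, such as its own microglia. Tagged ribosomes were precipitated (the RiboTag method) and their RNA was sequenced, with values deposited as FPKM, fragments counted per length of transcript and per depth of library.

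Integrins are cell surface receptors made of an alpha and a beta chain, and a beta chain is shared by several alphas. The beta2 chain Itgb2 pairs on leukocytes with Itgam (CD11b), Itgax (CD11c) or Itgal (CD11a), which bind complement fragments, fibrinogen and intercellular adhesion molecules. The beta1 chain Itgb1 pairs with Itga4, which binds VCAM-1 and fibronectin, with Itga5, the classical fibronectin receptor, and with Itga6, a laminin receptor. Itga4 also pairs with Itgb7, and Itgb3 pairs with Itgav as a receptor for vitronectin and with the platelet chain Itga2b as a receptor for fibrinogen. On macrophages these receptors serve entry from the blood, adhesion to matrix and uptake of opsonised particles.

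Among the 9 tested subunits, Itgax, Itgal, Itga4 and Itga6 were higher at 7 days and Itga5 and Itgb3 were lower, at an adjusted p of 0.05 or less. The test was limma on log2(FPKM + 1), 7 days minus 3 days, with Benjamini-Hochberg adjustment over the 13042 genes. Of all genes tested, 18.8% were called higher, 20.3% lower and 39.1% either way, so a call was common in these libraries. Itgam, Itgb7 and Itgb1 were not called, and neither was Itgb2 in the filtered table. The median log2 change was 0.13 over the 9 subunits and -0.04 over all genes tested, and with quantile normalization the medians were -0.096 over the subunits and 0.05 over all genes. With the authors' own q-values, 38.4% of the tested genes passed 0.05, as did Itgax, Itgal, Itga4, Itga6 and Itga5. Permuting 3 and 3 libraries gives no exact p under 0.1, and the calls therefore lean on limma's pooled variance. Nothing in the labels ties a library to 1 animal, so the spread behind a p-value is that of libraries and may be technical.

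**Figure D1:**
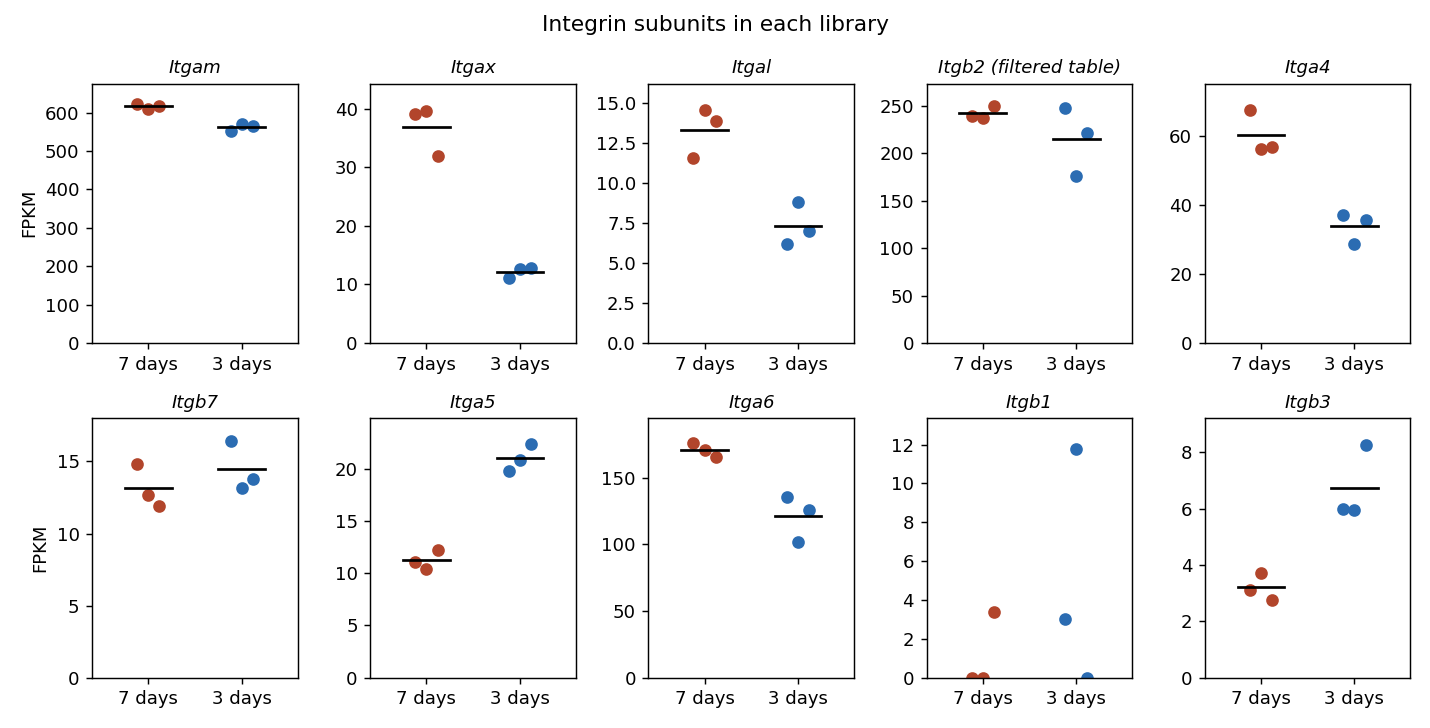
FPKM of each integrin subunit in each library, 7 days at the left and 3 days at the right of each panel, on axes that start at 0 and differ between panels. Points are libraries and bars are means of 3 (none for Itgb1, which is listed at 0 in 3 libraries). Itgax at 7 days lay between 31.9 and 39.6 FPKM, all above its 3-day libraries.

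Some facts of the libraries bear on every value. With 3-day replicate 1 as the unit, relative depth (taken from the spacing of low FPKM values) lay between 0.812 and 0.887 at 7 days and between 0.758 and 1 at 3 days. This estimate is the most frequent ratio within a preset window. It rests on few genes, from 11 in 3-day replicate 2 to 21 in 7-day replicate 1. The number of reads behind a gene is unknown. Genes at 1 FPKM or more numbered 10248 to 10402 at 7 days and 11147 to 11675 at 3 days. The 6 macrophage markers tested (Csf1r, Mertk and Aif1, called higher, and Cd14, Fcgr1 and Cd163, called lower) summed to 594 to 668 FPKM at 7 days and to 601 to 775 FPKM at 3 days. The microglia markers Tmem119, P2ry12, P2ry13, Sall1, Fcrls and Olfml3, of which 5 of 6 were called higher, summed to 251 to 289 FPKM at 7 days and to 132 to 165 FPKM at 3 days, without overlap, and so moved the same way as the 4 higher subunits. Summed levels of 8 inflammatory monocyte markers were 295 to 380.3 FPKM at 7 days and 1027 to 1157 FPKM at 3 days. Of 8 neutrophil markers tested, 2 were called higher (S100a8 and Mmp8), 2 lower (S100a9 and Cxcr2) and 4 not called. Their sums overlapped, at 77.6 to 93.7 FPKM at 7 days and 74.1 to 78.6 FPKM at 3 days. The sums of 8 neuron, 7 astrocyte, 7 oligodendrocyte and 8 endothelial markers did not overlap between the times and were lower at 7 days. Among the endothelial markers, Flt1 was called higher, averaging 12.4 FPKM at 7 days and 3.36 FPKM at 3 days. The neuron, astrocyte, oligodendrocyte and endothelial sums were all highest in 3-day replicate 2. There the neuron markers summed to 341 FPKM against 143 and 155 FPKM in the other 3-day libraries. Without that library, 4 subunits were still higher and 2 lower. The part of other cells in the results was not tested. Fewer cells of a type, less RNA per cell and less carry-over of RNA from untagged cells cannot be told apart in such bulk libraries.

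RefSeq sequences (build GRCm38.p6, which is mm10) from 250 bases before to 50 after the start were matched for 6 of the 10 genes by symbol. Those of a neighbouring pair that changed by different amounts (Itgam and Itgax) and of the alpha chains for fibronectin that changed in opposite directions (Itga4 and Itga5) are shown 5′ to 3′. Capitals mark GAGGAA, a core bound by the myeloid factor PU.1, and TGANTCA, the AP-1 motif, on either strand. No 2 matches overlapped in these sequences.
Itgam, chr7:128062390-128062689, + strand: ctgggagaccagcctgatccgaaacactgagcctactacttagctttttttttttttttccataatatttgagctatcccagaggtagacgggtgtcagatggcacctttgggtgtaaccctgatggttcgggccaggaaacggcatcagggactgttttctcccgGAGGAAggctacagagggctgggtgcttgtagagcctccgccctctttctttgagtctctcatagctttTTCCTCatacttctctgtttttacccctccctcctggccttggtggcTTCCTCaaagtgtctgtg
Itgax, chr7:128129300-128129599, + strand: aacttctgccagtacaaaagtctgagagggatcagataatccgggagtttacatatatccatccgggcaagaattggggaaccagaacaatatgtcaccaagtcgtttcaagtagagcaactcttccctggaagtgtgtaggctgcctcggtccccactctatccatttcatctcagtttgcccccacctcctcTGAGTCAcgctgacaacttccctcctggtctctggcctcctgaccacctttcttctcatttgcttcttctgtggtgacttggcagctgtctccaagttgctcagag
Itga4, chr2:79255176-79255475, + strand: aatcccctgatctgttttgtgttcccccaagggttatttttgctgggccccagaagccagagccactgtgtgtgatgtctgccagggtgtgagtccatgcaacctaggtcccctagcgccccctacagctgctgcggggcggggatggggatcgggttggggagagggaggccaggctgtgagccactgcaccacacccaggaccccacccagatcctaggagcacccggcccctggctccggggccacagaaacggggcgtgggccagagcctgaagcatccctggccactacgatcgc
Itga5, chr15:103366742-103367041, - strand: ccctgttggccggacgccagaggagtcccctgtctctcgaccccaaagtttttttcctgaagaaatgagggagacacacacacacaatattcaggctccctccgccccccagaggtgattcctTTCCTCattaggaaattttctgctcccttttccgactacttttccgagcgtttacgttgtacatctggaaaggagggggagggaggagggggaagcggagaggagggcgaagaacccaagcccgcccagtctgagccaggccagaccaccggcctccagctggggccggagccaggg
The Itgam window held 3 matches to GAGGAA and 0 to TGANTCA. The Itgax window held 0 and 1, the Itga5 window 1 and 0, and the Itga4 window 0 of both. Of 32851 promoter windows of the same length, 28.3% held GAGGAA and 7.81% held TGANTCA. The GC content was 64.3% for Itga4, 58.7% for Itga5, 50.3% for Itgam and 50% for Itgax. A match is a description of the letters only.

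Itgam, the alpha chain of complement receptor Mac-1, had the highest listed level of the 10 subunits at both times. It measured 622, 610.0 and 617 FPKM in the 7-day libraries and 552, 569.8 and 565 FPKM in the 3-day libraries. All 7-day libraries lay above all 3-day libraries, a separation that 55.4% of all tested genes showed in either direction (26.8% upward). The means were 616 ± 6.06 FPKM at 7 days and 562 ± 8.97 FPKM at 3 days (mean ± SD, n = 3 each). The log2 change of 0.13 ± 0.11 (SE) did not pass limma (adjusted p = 0.372), and it was -0.096 with quantile normalization. Its 95% interval, -0.13 to 0.40, holds changes between 0.912-fold and 1.32-fold. The deposited locus spans the whole gene (mm10 chromosome 7, 128062629 to 128118641, all 30 exons of the principal transcript in GENCODE M21) and overlaps the annotated coding gene Gm49368.

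Itgax, the alpha chain of complement receptor p150,95 and a marker of dendritic cells and activated macrophages, had the largest change among the 6 called subunits. It measured 39.1, 39.6 and 31.9 FPKM at 7 days and 11.1, 12.6 and 12.7 FPKM at 3 days. The groups did not overlap, and the lowest 7-day library was replicate 3. The means of 36.9 ± 4.28 FPKM at 7 days and 12.1 ± 0.931 FPKM at 3 days (mean ± SD, n = 3 each) gave a 3.04-fold higher level. The log2 change was 1.52 ± 0.12 (SE; limma adjusted p = 0.000353), and 0.859% of all tested genes had a larger upward change. Over 17 alternative settings it stayed between 1.42 and 1.62 and kept its call. Of the dendritic cell markers, Zbtb46 and Ccr7 averaged 0.331 and 0 FPKM at 7 days and 0.693 and 0.305 FPKM at 3 days, while Batf3, called higher, averaged 5.61 FPKM at 7 days and 2.23 FPKM at 3 days. The locus deposited for Itgax is 2811 bases at the end of the gene (chromosome 7, 128147847 to 128150658). It holds exons 24 to 30 of 30, with 28.5% of the exonic bases.

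Itgal, the alpha chain of LFA-1 on lymphocytes and other leukocytes, was also higher at 7 days. It measured 11.6, 14.6 and 13.9 FPKM at 7 days and 6.18, 8.80 and 6.97 FPKM at 3 days, with no overlap. The means were 13.3 ± 1.59 FPKM at 7 days and 7.32 ± 1.35 FPKM at 3 days (mean ± SD, n = 3 each; log2 change 0.79 ± 0.16, SE; limma adjusted p = 0.00800). Markers of T and NK cells stood near the floor, with 4 of 12 tested (Cd4 called higher) and summed levels of 2.50 to 4.19 FPKM at 7 days and 1.78 to 3.28 FPKM at 3 days. The 2 tested B cell markers, Cd22 and Cd79b, were both called higher and summed to 12.4 to 16.5 FPKM at 7 days and to 4.31 to 5.52 FPKM at 3 days. The deposited locus of Itgal is likewise partial, 4999 bases on chromosome 7 (127325211 to 127330210) with exons 24 to 30 of 31 and 11.6% of the exonic bases.

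Itgb2, the chain these 3 alphas share, was not called. In the filtered table it stood at 239.5, 238 and 249.8 FPKM at 7 days and at 247.5, 176 and 221 FPKM at 3 days. The groups overlapped, with 3-day replicate 2 the lowest. The log2 change was 0.19 ± 0.14 (SE) in a limma fit over the 9585 tested genes of that table, 39.9% of which were called (adjusted p = 0.305; 95% interval -0.13 to 0.51). It was -0.034 with quantile normalization and 0.05 without 3-day replicate 2. The summed FPKM of the 3 alphas was 2.65 to 2.81 times that of Itgb2 at 7 days and 2.30 to 3.36 times at 3 days.

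Because FPKM is scaled to length, the 3 beta2 alphas can be set beside each other as shares of their sum. A limit is that the loci deposited for Itgax and Itgal hold only part of their exons. Itgam made up 92.5%, 91.8% and 93.1% at 7 days and 96.97%, 96.4% and 96.6% at 3 days. Itgax made up 5.81%, 5.96% and 4.82% at 7 days and 1.94%, 2.13% and 2.18% at 3 days. The share of Itgax was thus higher in every 7-day library, by 3.45 percentage points in the mean. Itgal took 2.00% ± 0.253 at 7 days and 1.26% ± 0.209 at 3 days (mean ± SD, n = 3 each). Each of these differences had a two-sided exact permutation p of 0.1, the smallest that 3 against 3 libraries allow. The ratio of Itgam to Itgax was 16.9 ± 2.13 at 7 days and 46.5 ± 3.01 at 3 days (exact permutation p = 0.1).

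**Figure D2:**
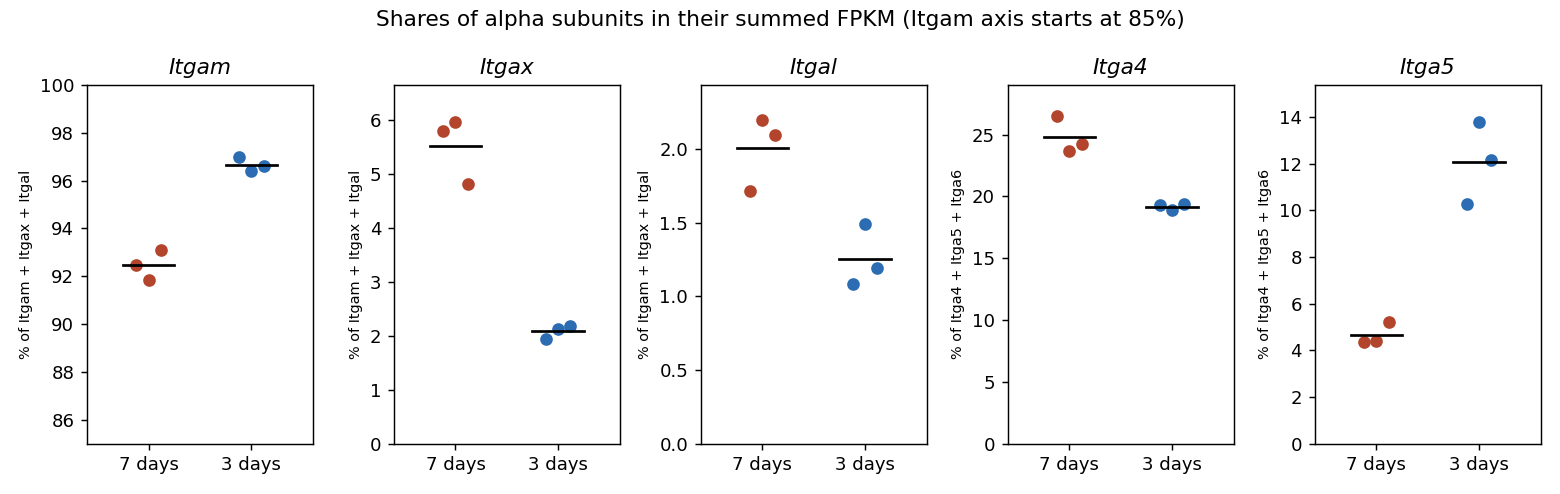
Share of each alpha subunit in the summed FPKM of the alphas named on the axis, per library, 7 days at the left and 3 days at the right of each panel. Points are libraries and bars are means of 3, and the Itgam axis starts at 85%. Itgax lay at 4.82% to 5.96% at 7 days, above 1.94% to 2.18% at 3 days.

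Of the alphas that pair with beta1, Itga4 and Itga6 were higher at 7 days and Itga5 was lower. Itga4, which also carries monocytes onto VCAM-1 on endothelium, measured 67.6, 56.1 and 56.8 FPKM at 7 days and 37.1, 28.6 and 35.7 FPKM at 3 days. No 7-day library overlapped a 3-day library. Its means were 60.2 ± 6.45 FPKM at 7 days and 33.8 ± 4.54 FPKM at 3 days (mean ± SD, n = 3 each), a log2 change of 0.82 ± 0.13 (SE; limma adjusted p = 0.00357). The locus (chromosome 2, 79255151 to 79331843) holds all 28 exons and overlaps the coding gene Cerkl.

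Itga6, the laminin-binding alpha, had the highest level after Itgam among the alphas of the 10 subunits. It measured 176, 171 and 165 FPKM at 7 days and 135, 102 and 126 FPKM at 3 days. The groups did not overlap, and 3-day replicate 2 was the lowest. The log2 change of 0.50 ± 0.12 (SE; limma adjusted p = 0.0175) was the smallest among the called subunits. The call was lost without 7-day replicate 1 (adjusted p = 0.0598), without 7-day replicate 2 (adjusted p = 0.0568) and with quantile normalization (log2 change 0.29, adjusted p = 0.0973). Over all alternatives the adjusted p went up to 0.0973. The locus on chromosome 2 (71786983 to 71859583) holds all 26 exons of the principal transcript and leaves out the first part of the annotated gene, 63.3% of which it covers.

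Itga5, the fibronectin-binding alpha, fell by 0.85 on the log2 scale. It measured 11.1, 10.4 and 12.2 FPKM at 7 days and 19.8, 20.9 and 22.4 FPKM at 3 days. The spread within each time was small beside the gap between them, with means of 11.3 ± 0.909 FPKM at 7 days and 21.02 ± 1.32 FPKM at 3 days (mean ± SD, n = 3 each; SE of the log2 change 0.11; limma adjusted p = 0.00159). The change stayed between -0.90 and -0.76 under 17 alternative settings, and the call was kept in each. The locus covers all 30 exons (chromosome 15, 103343668 to 103366724). Beside Itga5, 6 of 8 tested monocyte markers and 6 of 8 endothelial markers were called lower, while the endothelial marker Flt1 was called higher. All 8 neuron, 7 of 7 oligodendrocyte and 5 of 7 astrocyte markers were also called lower. The part of these cells in the change of Itga5 was not tested.

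As shares of Itga4, Itga5 and Itga6 together, Itga4 took 26.5%, 23.6% and 24.2% at 7 days and 19.3%, 18.9% and 19.4% at 3 days. Itga5 took 4.36%, 4.39% and 5.21% at 7 days and 10.3%, 13.8% and 12.2% at 3 days. Neither share overlapped between the times (exact permutation p = 0.1 each). Itga6 took most of the sum at both times, 70.6% ± 1.41 at 7 days and 68.7% ± 1.55 at 3 days (mean ± SD, n = 3 each; exact permutation p = 0.2), and that share overlapped. With the other alpha partners of beta1 added to the sum, chiefly Itgav, the difference for Itga6 was -0.59 percentage points instead of 1.82.

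Itgb1, the partner of these alphas and a chain that nearly every cell uses, was listed at 0, 0 and 3.40 FPKM at 7 days and at 3.01, 11.8 and 0 FPKM at 3 days. It was thus at 0 in 3 libraries in which its alpha partners were abundant. No mean or fold is given for that reason, and the gene was not called (limma adjusted p = 0.342). Multiplied by relative depth, the 3 values above 0 were 3.01, 3.01 and 11.1, which stand to each other as 3, 3 and 11. The authors' tables give identical values for Itgb1 beside different loci. The unfiltered table names the whole gene (chromosome 8, 128685692 to 128734465, 16 exons, overlapping the coding gene Ccdc7a), and the filtered table names 185 bases before its annotated start (128685190 to 128685375, 0 exons). Which of the 2 the values belong to is not stated, so they cannot be read as levels of the Itgb1 transcript. Of 10072 symbols on 1 row of each table, 693 had different loci, and Itgb1 was the only one among the members found in both.

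**Figure D3:**
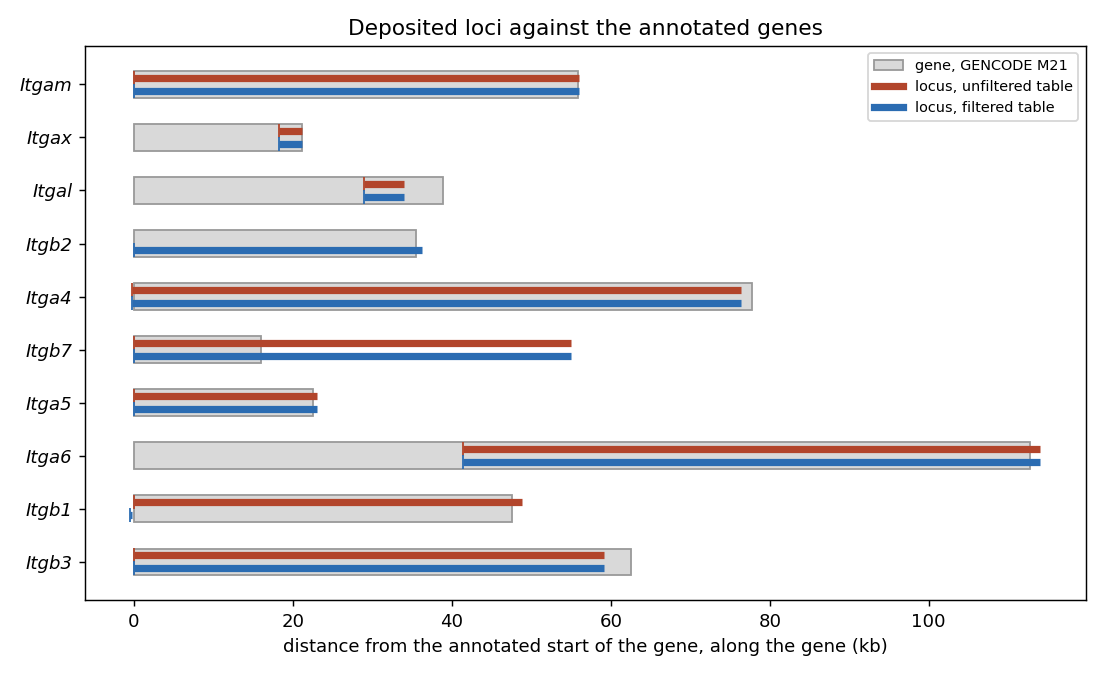
Loci that the authors' tables give for each subunit (red, unfiltered table; blue, filtered table) laid over the gene as annotated in GENCODE M21 (grey), in kb from the annotated start along the gene. Itgax and Itgal loci cover 28.5% and 11.6% of the exonic bases, the Itgb7 locus runs past its gene, and the Itgb1 loci differ between the tables.

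Itgb7, which pairs with Itga4 on gut-homing lymphocytes and some myeloid cells, was not called. It measured 14.8, 12.7 and 11.9 FPKM at 7 days and 16.4, 13.2 and 13.8 FPKM at 3 days, and the groups overlapped. The log2 change was -0.13 ± 0.13 (SE; limma adjusted p = 0.463; 95% interval -0.44 to 0.18). Its locus of 54973 bases (chromosome 15, 102176940 to 102231913) also takes in the coding genes Csad and Zfp740, so which of the 3 genes the fragments came from cannot be told apart here.

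Itgb3, the beta chain of the vitronectin and platelet fibrinogen receptors, fell by 0.87 on the log2 scale. It measured 3.12, 3.71 and 2.77 FPKM at 7 days and 5.98, 5.96 and 8.25 FPKM at 3 days. The groups did not overlap, with means of 3.20 ± 0.479 FPKM at 7 days and 6.73 ± 1.31 FPKM at 3 days (mean ± SD, n = 3 each; SE 0.17; limma adjusted p = 0.00803). The authors' deposited table gives it a q-value of 0.0630, which does not pass 0.05. Its platelet partner Itga2b averaged 0.116 FPKM at 7 days and 0.504 FPKM at 3 days. Of the other platelet markers, Pf4 averaged 85.7 FPKM at 7 days and 256 FPKM at 3 days and Ppbp 0.165 FPKM at 7 days and 4.69 FPKM at 3 days, both called lower. The locus (chromosome 11, 104608020 to 104667138) touches all 15 exons with 41.9% of the exonic bases.

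**Figure D4:**
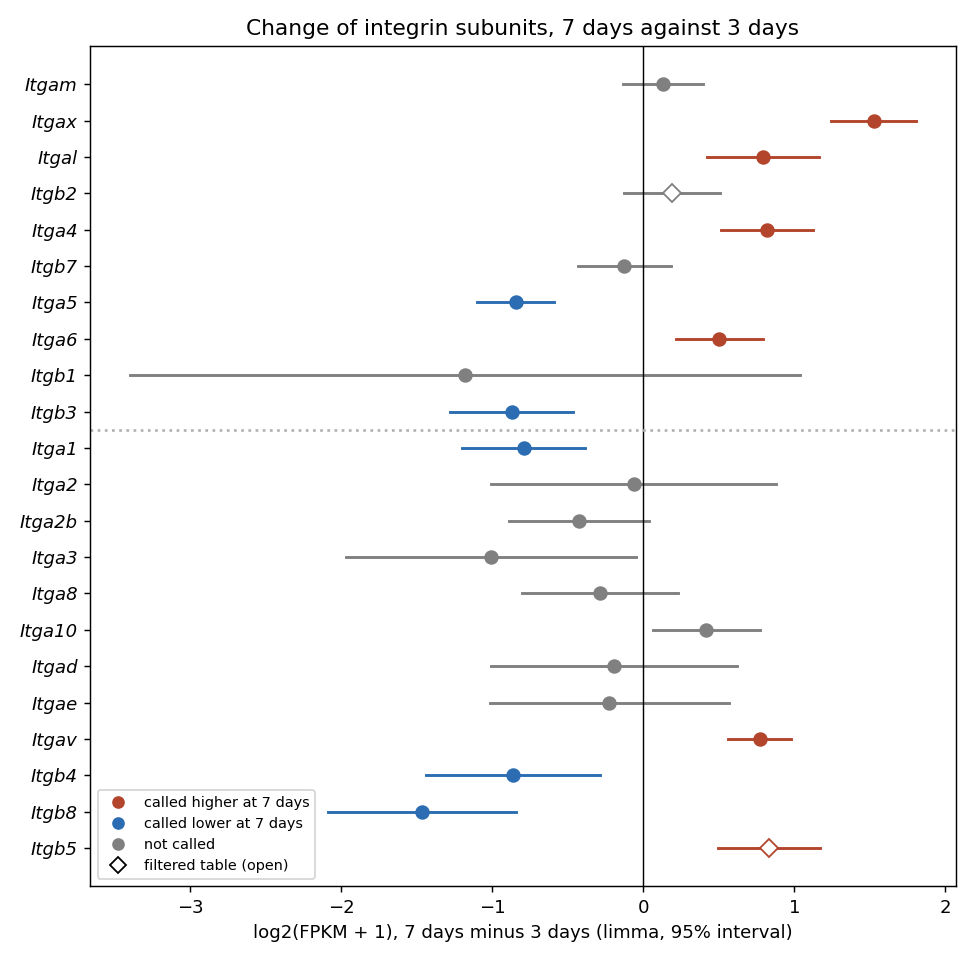
Change of each tested integrin subunit in log2(FPKM + 1), 7 days minus 3 days, with the 95% interval from limma. The 10 members stand above the dotted line and the other subunits below it, and open diamonds come from the filtered table. Itgax lies farthest to the right at 1.52 and Itgb8 farthest to the left at -1.47.

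In order of level at 7 days, the subunits ran Itgam, Itgb2, Itga6, Itga4, Itgax, Itgal, Itgb7, Itga5 and Itgb3. Itgb1 was left out of the order because of its values of 0. The ranges of libraries overlapped between Itgal and Itgb7 and between Itgb7 and Itga5. At 3 days the first 4 were in the same order, followed by Itga5, Itgb7, Itgax, Itgal and Itgb3, with overlap between Itgal and Itgb3. In listed FPKM, Itgax thus stood above Itga5 and Itgb7 at 7 days and below both at 3 days. The loci deposited for Itgax, Itgal and Itgb3 hold only part of the exonic bases, and that of Itgb7 takes in other coding genes. The order is therefore one of listed values and may not be that of the transcripts. Among 6015 tested genes of 10 FPKM or more, those with the profile nearest to Itgam over the 6 libraries were Tra2b, Morc3 and Exoc1, at root mean square distances of 0.016, 0.022 and 0.026 in log2 units. Those nearest to the values listed for Itgb1 were Rundc3a, Enox1 and Col8a1, and at 0.74 to 0.81 they were far from them. As the values listed for Itgb1 cannot be read as levels of its transcript, these distances say nothing of that transcript.

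The other integrin subunits moved both ways. Of 16 further subunits, 11 were tested, and 1 was higher, 3 were lower and 7 were not called. Over all genes tested, 18.8% were called higher and 20.3% lower. Itgav, the alpha of the vitronectin receptors, measured 174, 172 and 182 FPKM at 7 days and 99.0, 107 and 102 FPKM at 3 days, a log2 change of 0.77 ± 0.09 (SE; limma adjusted p = 0.00110). Its partner Itgb5, from the filtered table and named after its value was seen, measured 86.9, 105.5 and 91.8 FPKM at 7 days and 58.4, 42.8 and 58.3 FPKM at 3 days (log2 change 0.83 ± 0.15, SE; limma adjusted p = 0.00358). Another partner of Itgav, Itgb8, a chain that activates latent TGF-beta, was lower with 4.14, 4.76 and 4.76 FPKM at 7 days and 11.6, 23.1 and 10.8 FPKM at 3 days. Its log2 change was -1.47 ± 0.27 (SE; limma adjusted p = 0.00573), and -1.14 without 3-day replicate 2. So the chains that can pair with Itgav did not move alike, with Itgb5 higher and Itgb3 and Itgb8 lower. Itga1, a collagen receptor, was lower at 0.588 ± 0.166 FPKM at 7 days and 1.75 ± 0.283 FPKM at 3 days (mean ± SD, n = 3 each), a call lost with quantile normalization (adjusted p = 0.356). Itgb4, the epithelial laminin chain, averaged 0.145 FPKM at 7 days and 1.15 FPKM at 3 days and was called lower (limma adjusted p = 0.0292). That call was lost without any single library but 3-day replicate 3 and with quantile normalization (adjusted p up to 0.273). The rows of Itga7, Itga9 and Itga11 were not tested because the library values miss the authors' mean. The median log2 change of the 11 was -0.29 beside -0.04 for all genes, and it was 0.13 with quantile normalization.

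Of 25 listed integrin ligands, 12 were tested, of which 5 were lower, 3 higher and 4 not called. Over all genes tested, 20.3% were called lower and 18.8% higher. The median log2 change of the 12 ligands was -0.94 (-0.61 with quantile normalization). The fibronectin gene Fn1 fell to 115, 107 and 146 FPKM at 7 days, against 575, 683 and 482 FPKM at 3 days (log2 change -2.23 ± 0.17, SE; limma adjusted p = 0.000324). Thbs1, the matrix glycoprotein thrombospondin, fell to 198, 200.2 and 189 FPKM at 7 days, against 1150, 759 and 1015 FPKM at 3 days (log2 change -2.29). The matrix protein Tnc averaged 5.63 ± 2.55 FPKM at 7 days and 63.3 ± 30.9 FPKM at 3 days, and Cyr61, another matrix protein, 1.02 ± 0.0909 FPKM at 7 days and 7.31 ± 3.37 FPKM at 3 days (mean ± SD, n = 3 each). Jam3, a junction molecule that binds Itgam, averaged 1.66 ± 0.703 FPKM at 7 days and 8.29 ± 2.19 FPKM at 3 days (mean ± SD, n = 3 each). Fn1, Tnc, Cyr61 and Jam3 were highest in 3-day replicate 2, where neural markers also summed highest, and each kept its call without it. Thbs1 was lower in that library than in the other 3-day libraries. The ligands that rose were cell surface molecules. Vcam1, the ligand of Itga4, measured 20.4, 14.6 and 12.2 FPKM at 7 days and 7.74, 11.4 and 8.82 FPKM at 3 days (log2 change 0.68; limma adjusted p = 0.0366). Leaving out 7-day replicate 1, 7-day replicate 2, 3-day replicate 1 or 3-day replicate 3 ended that call (adjusted p = 0.0840 to 0.0998). Icam1 and F11r, ligands of Itgal that were named after their values were seen, averaged 19.1 ± 0.688 and 22.4 ± 2.66 FPKM at 7 days and 13.1 ± 0.974 and 13.9 ± 2.34 FPKM at 3 days (mean ± SD, n = 3 each). F11r lost its call without 7-day replicate 2 (adjusted p = 0.0528), a setting in which 1 ligand was called higher instead of 3. Fn1 is also on the list of monocyte markers, all 6 called members of which were lower.

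Of the genes that activate integrins or join them to actin, 31 of 34 listed were tested, and 6 were higher, 10 lower and 15 not called. Over all genes tested, 18.8% were called higher and 20.3% lower. The median log2 change of the 31 was -0.13 (-0.28 with quantile normalization). Members of 1 family differed in direction in some cases. The kindlin Fermt2, found mainly outside blood cells, fell to 4.92 ± 1.92 FPKM at 7 days, against 21.6 ± 7.23 FPKM at 3 days (mean ± SD, n = 3 each; log2 change -1.93; limma adjusted p = 0.00256). Its blood cell counterpart Fermt3, named after its value was seen, averaged 136 ± 6.55 FPKM at 7 days and 102.9 ± 9.26 FPKM at 3 days (mean ± SD, n = 3 each; log2 change 0.40; limma adjusted p = 0.0202). Fermt3 lost its call without any single 7-day library and with quantile normalization (log2 change 0.16, adjusted p = 0.237). Of the parvins, which link integrin-linked kinase to actin, Parvg of blood cells measured 70.1, 80.9 and 89.4 FPKM at 7 days and 47.7, 39.2 and 46.4 FPKM at 3 days (log2 change 0.83; limma adjusted p = 0.00282). Parva of other tissues measured 0.0730, 0.720 and 3.08 FPKM at 7 days and 6.33, 20.3 and 8.36 FPKM at 3 days (log2 change -2.53; limma adjusted p = 0.0111). Parvb, the remaining parvin and named after its value was seen, was also lower, at 9.29 ± 0.749 FPKM at 7 days and 16.3 ± 3.24 FPKM at 3 days (mean ± SD, n = 3 each; log2 change -0.74; limma adjusted p = 0.0116). Focal adhesion kinase Ptk2 fell to 4.04 ± 0.441 FPKM at 7 days, against 15.4 ± 3.06 FPKM at 3 days, and the talin Tln2 to 18.0 ± 4.34 FPKM at 7 days, against 41.6 ± 8.15 FPKM at 3 days (mean ± SD, n = 3 each). Talin is the protein that binds beta tails and switches integrins on. The main leukocyte form Tln1, named after its value was seen, was not called (log2 change -0.26, limma adjusted p = 0.285). Apbb1ip, the Rap1 effector RIAM that recruits talin, fell to 36.7 ± 6.50 FPKM at 7 days, against 82.6 ± 15.2 FPKM at 3 days (mean ± SD, n = 3 each; log2 change -1.15; limma adjusted p = 0.00303). Rasgrp2, which activates Rap1, averaged 28.3 ± 5.81 FPKM at 7 days and 17.8 ± 0.608 FPKM at 3 days, and Syk, a kinase that signals below beta2 integrins, 71.7 ± 5.12 FPKM at 7 days and 45.8 ± 7.97 FPKM at 3 days (mean ± SD, n = 3 each). Both were called higher and were named after their values were seen. Rasgrp2 lost its call without 7-day replicate 2 (adjusted p = 0.0532) and Syk with quantile normalization (adjusted p = 0.0608). Parva, Fermt2 and Tln2 were highest in 3-day replicate 2 and kept their calls without it, while Ptk2, Apbb1ip and Parvb were highest in 3-day replicate 1. Beside these genes, all 8 neuron markers, 7 of 7 oligodendrocyte, 5 of 7 astrocyte and 6 of 8 endothelial markers were called lower, while the endothelial marker Flt1 was called higher. The part of these cells in the lower calls was not tested. Without any single 7-day library, 3 activators and adaptors were higher instead of 6.

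**Figure D5:**
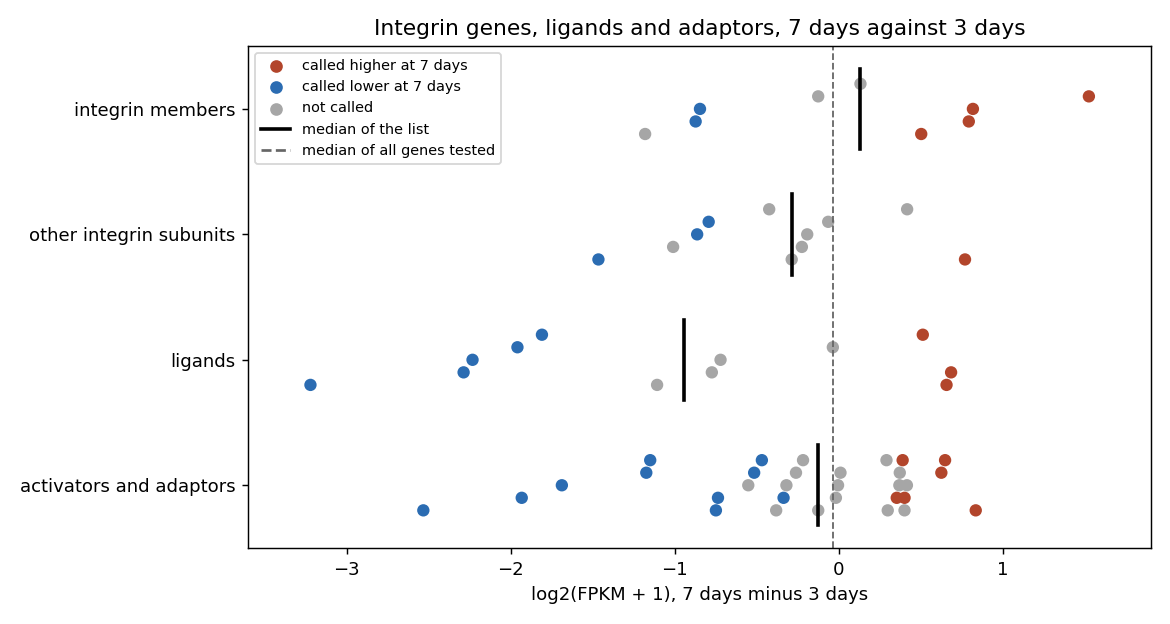
Change of each tested gene in log2(FPKM + 1), 7 days minus 3 days, for the integrin members, the other integrin subunits, their ligands, and their activators and adaptors. Points are genes, black bars list medians, and the dashed line the median of all genes tested at -0.04. Ligands have the lowest median, -0.94.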

How the data were processed

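Libraries were made with the ScriptSeq v2 kit from RiboTag precipitates, per the labels' protocols. Build mm10 and the tools Cuffdiff 2.2.1, Cufflinks 2.2 and TopHat2 2.0.12 are listed, per the submitters' processing notes, with no role or order. The authors deposited 2 tables with an FPKM value per gene and library, their mean FPKM per time, and, per the file headers, a log2 fold change, a test score, a p-value and a q-value of their own. How libraries were scaled and how the filtered table of 10239 rows was filtered is not stated.

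Of 13960 rows, 918 were set aside: 45 by the status column, 838 because the 3 libraries do not average to the deposited mean within 1%, 14 listed at 0 beside 100 FPKM or more, and 32 of repeated symbols, some rows meeting several. The 13042 others were fitted with limma 3.58.1 (R 4.3.3) on log2(FPKM + 1) with a mean-dependent prior variance and no filter on low values. Shares were compared with exact permutation tests (Python 3.11.15, scipy 1.17.1, numpy 2.4.6, pandas 2.3.3, matplotlib 3.10.9). The number of reads is unknown, so no counting interval is given. The fit was tested on simulated data.

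The subunits, gene lists and tests were chosen with earlier results of these data known. The text names all 10 subunits, up to 6 called genes of each list by size of log2 change (1 FPKM or more in the higher time), and the 3 profiles nearest to Itgb1 and to Itgam, its most abundant tested alpha partner standing in for Itgb2. Other names were added after values were seen, as stated. Whether deposited locus starts count from 0 or 1 is not stated. The listed microglia markers hold 1 more gene that is not reported here.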

Additional observations from a re-analysis of the deposited data

How the results depend on the processing

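Over all genes, 2453 were called higher and 2645 lower. The counts were 1204 lower with a mean of 5 FPKM or more, 1433 lower in the filtered table, 2317 higher and 1809 lower with quantile normalization, and 2920 higher and 2321 lower with median centring. Leaving out 1 library gave 1572 to 2207 higher and 1697 to 2565 lower, the lowest counts without 7-day replicate 2. For the members, 3 to 4 were higher and 2 lower without 1 library, and 1 was lower with a mean of 5 FPKM or more and with the authors' q-value. The change of Itgam was -0.096 and that of Itgb2 -0.034 with quantile normalization, and the cause was not tested.

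For the other integrin subunits, 2 were higher with quantile normalization, 2 with median centring, 2 with the authors' q-value and 3 in the filtered table, while 1 was lower with quantile normalization and 1 with a mean of 5 FPKM or more. Leaving out 1 library gave 1 higher and 2 to 4 lower. For ligands, 3 were lower with a mean of 5 FPKM or more, 9 with inconsistent rows kept and 2 in the filtered table, and leaving out 1 library gave 1 to 3 higher and 5 to 6 lower. For activators and adaptors, 2 were higher with quantile normalization and 10 with median centring, and leaving out 1 library gave 3 to 8 higher and 8 to 13 lower. Fewer genes are tested under the filters. The cause of the other changes was not tested.

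The share difference of Itgam was -4.20 percentage points, -4.70 with quantile normalization and -4.51 to -3.88 without 1 library. Without 1 library the difference was 3.23 to 3.803 for Itgax, 4.75 to 6.17 for Itga4 and 1.12 to 2.66 for Itga6. With other alpha partners added it was 2.67 for Itga4 and -0.59 for Itga6, the cause of which was not tested.

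Same-numbered libraries of the 2 times correlated at 0.133, 0.0057 and 0.0097 in their deviations from the mean of each time. Replicates 2 and 3 at 3 days correlated best with another number. With 3 libraries per time and values this near 0, the check cannot tell whether the numbers pair the libraries. With the replicate block, 4 members were higher and 2 lower, and 2450 genes were higher and 2425 lower. The number of fragments per gene is unknown, which limits what can be said of low values such as those of Itgb4.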
